A study of Mus musculus with 2 samples.

Results

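The transforming growth factor beta (TGF-beta) genes described here are the ligands Tgfb1, Tgfb2 and Tgfb3, the receptors Tgfbr1, Tgfbr2 and Tgfbr3, and the signal transducers Smad2, Smad3, Smad4 and Smad7. They were chosen by gene symbol from the deposited expression values, and all 10 were found among 21829 genes. The study asks how loss of Gne, the enzyme that starts sialic acid synthesis, acts on myoblasts. Its deposited RNA sequencing of C2C12, an immortalised mouse myoblast line, holds 2 libraries: 1 from WT cells and 1 from cells with the genotype GNE KO. The cells of both lines grew in DMEM that held FBS at 10% and gentamicin at 50 µg/ml. According to the methods, the KO line carries a Cas9-made indel in exon 2 of Gne and was derived from single isolated clones, so what is particular to a clone cannot be told apart from what follows from Gne. With 1 library per line there is no replicate spread, and every difference below is the size of a change between 2 libraries, without a test.

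TGF-beta ligands are secreted in a latent complex that is stored in the extracellular matrix. The released ligand brings together the type II receptor Tgfbr2 and the type I receptor Tgfbr1, a step that the co-receptor Tgfbr3 (betaglycan) assists, above all for Tgfb2. Tgfbr1 then phosphorylates Smad2 and Smad3, which enter the nucleus with Smad4 and act on genes of matrix, cytoskeleton and growth control, among them Smad7, which in turn blocks the receptor. In myoblasts the pathway is known for restraining differentiation into muscle fibres.

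The values were read as FPKM (fragments scaled to transcript length and to sequencing depth), so levels can be compared between genes within a library. Gne itself had 6.67 FPKM in WT and 7.34 FPKM in the other. Because its RNA was not lower, Gne does not by itself show which library carries the edit, and the second is called the KO-labelled library. Of 8 myoblast markers, Myod1 had 59.97 FPKM in the WT library and was listed at 0 in the KO-labelled library, and Des went from 97.6 to 3.84 FPKM, while Pax7 was listed at 0 in both. Myf5 had the higher value in the KO-labelled library, with 9.14 and 20.3 FPKM, and Ncam1 had 14.7 and 13.0 FPKM. Of the 6 myoblast markers with a mean of at least 1 FPKM, 4 had under 0.5 of their WT value and 1, Myf5, had over 2 times its WT value. The summed level of the 8 was 213 FPKM in WT against 38.8 FPKM in the KO-labelled library. The sum of 7 fibroblast markers was 345 and 169.6 FPKM, with Thy1 and Lum at 0 in both. Most of that difference was Cd34, with 136 and 10.6 FPKM, while Ly6a had 198 and 146 FPKM and Pdgfra 10.8 and 12.3 FPKM. The sum of 4 endothelial markers was 0.010 and 0.028 FPKM. The sums were 24.1 and 18.0 FPKM for 5 osteoblast markers (Alpl and Ibsp at 0 in both), 15.6 and 22.7 FPKM for 5 adipocyte markers (Adipoq and Plin1 at 0 in both) and 3.10 and 1.58 FPKM for 5 macrophage markers (Ptprc and Adgre1 at 0 in both). The part of these marker differences in the results below was not tested. In such bulk libraries fewer cells of a type and less RNA per cell cannot be told apart.

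The genes that carried the main differences among the members were Smad3 and Tgfbr2, both on chromosome 9, and Tgfbr3 on chromosome 5. The RefSeq table of promoters, on GRCm38.p6, held windows from 250 bases before to 50 bases after the start for Smad3 and Tgfbr2, and these are printed here because they belong to the members with the highest and the lowest log2 fold change. The window of Acta2, a contractile gene and TGF-beta target described further on, is shown for comparison. All are written 5′ to 3′ on the strand of the gene. Smad3 is at chr9:63757945-63758244 on the minus strand, Tgfbr2 at chr9:116175314-116175613 on the minus strand and Acta2 at chr19:34255324-34255623 on the minus strand. Capitals mark CAGAC or its reverse complement GTCTG, the short Smad-binding element.
Smad3: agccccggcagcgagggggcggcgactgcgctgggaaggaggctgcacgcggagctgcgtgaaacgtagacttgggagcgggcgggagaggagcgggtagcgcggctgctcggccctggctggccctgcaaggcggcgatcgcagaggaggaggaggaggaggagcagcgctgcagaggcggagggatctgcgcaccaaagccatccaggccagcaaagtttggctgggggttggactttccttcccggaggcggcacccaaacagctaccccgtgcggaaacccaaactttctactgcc
Tgfbr2: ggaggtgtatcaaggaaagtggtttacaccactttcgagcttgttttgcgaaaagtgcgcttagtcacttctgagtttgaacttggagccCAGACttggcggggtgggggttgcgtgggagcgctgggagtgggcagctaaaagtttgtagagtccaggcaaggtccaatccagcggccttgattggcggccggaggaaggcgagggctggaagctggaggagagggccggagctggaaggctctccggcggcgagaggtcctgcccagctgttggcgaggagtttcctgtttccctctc
Acta2: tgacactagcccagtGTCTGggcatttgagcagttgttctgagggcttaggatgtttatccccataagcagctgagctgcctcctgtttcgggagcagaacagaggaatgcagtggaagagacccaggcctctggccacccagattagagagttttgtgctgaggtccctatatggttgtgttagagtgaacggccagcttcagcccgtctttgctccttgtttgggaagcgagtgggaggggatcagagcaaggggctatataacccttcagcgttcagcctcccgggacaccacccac

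CAGAC was found once in the Tgfbr2 window, beginning 160 bases before the start, and once in the Acta2 window, in reverse and beginning 235 bases before the start. These letters were not in the Smad3 window. The element is short and frequent, and 49.6% of the 32851 promoter windows of all genes held it on either strand. Windows on chromosome 18, where Smad2, Smad4 and Smad7 lie, were left out of the member and target counts but kept among all windows. Of 6 windows of the 5 members counted (Tgfb1, Tgfb2, Tgfbr1 with 2 windows, Tgfbr2 and Smad3), 3 held it. Of 16 windows of the 14 TGF-beta target genes counted, 11 held it. The palindrome GTCTAGAC was in none of these counted windows of members or targets and in 0.213% of all windows. For Smad2, Smad4 and Smad7 neither motif is reported here. A match is a description of the sequence and not a binding site.

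None of the 10 members differed by more than 2-fold between the libraries. On the scale log2((KO + 1)/(WT + 1)), used for all fold changes here, 0 of 10 were beyond 1 in the higher direction, where 2.84% of all genes lay, and 0 of 10 in the lower direction, where 3.43% lay. All 10 passed the filter of a mean of at least 1 FPKM, as did 10542 genes in all. Of the members, 6 had a higher and 4 a lower value in the KO-labelled library, with a median of 0.015. The sign of Tgfb1, the smallest of these differences, turned when the libraries were scaled to each other. Among the 10542 genes, 5348 had the higher and 5192 the lower value, with a median of 0.0061. The interquartile range of all genes ran from -0.21 to 0.23, and 6 members lay within it. At a threshold of 1.5-fold, chosen after the values were seen, 2 of 10 members were higher, Smad3 and Tgfbr3, beside 7.68% of all genes, and 0 of 10 were lower, beside 7.5% of all genes.

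**Figure D1:**
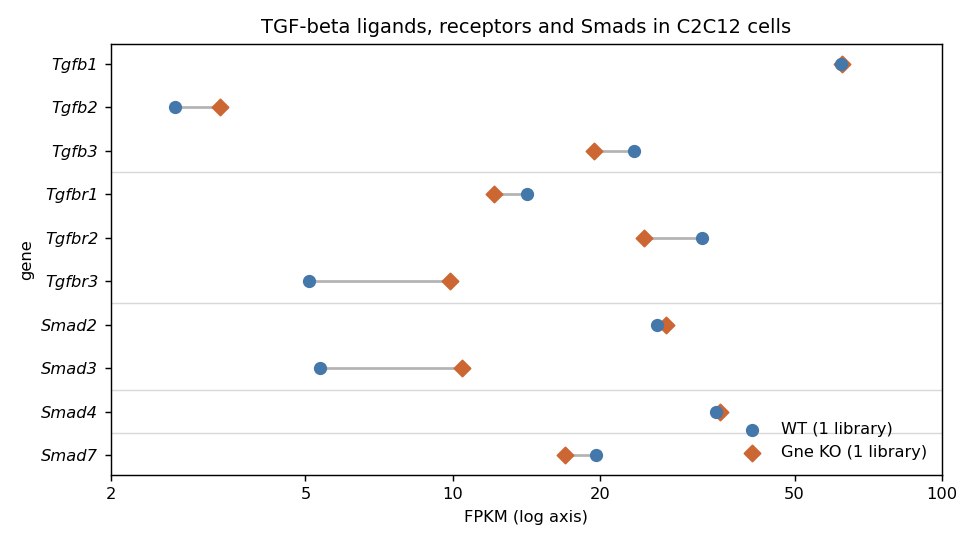
FPKM of each member on a log axis, with 1 point for the WT library (circle) and 1 for the KO-labelled library (diamond), genes grouped by role. Smad3 moved from 5.34 to 10.4 FPKM and Tgfbr3 from 5.08 to 9.88 FPKM, while the points of Tgfb1, Smad2 and Smad4 nearly coincide.

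Of the ligands, Tgfb1 was by far the most abundant, and its value was the same in both libraries to within 1%. Tgfb1, the main isoform in most tissues, had 62.2 FPKM in WT against 62.4 FPKM in the KO-labelled library, a log2 fold change of 0.0039. Tgfb3 had 23.5 and 19.4 FPKM, a log2 fold change of -0.26. Tgfb2, the isoform that depends most on Tgfbr3 for binding to its receptors, had 2.71 and 3.35 FPKM, a log2 fold change of 0.23. The ligands together had 88.4 FPKM in WT against 85.2 FPKM in the KO-labelled library. Tgfb1 made up 70.4% of that sum in WT and 73.3% in the other, Tgfb3 26.6% and 22.8%, and Tgfb2 3.06% and 3.93%. The order of the isoforms was therefore shared by the libraries, with Tgfb1 at 23.0 times the level of Tgfb2 in the WT library and 18.6 times in the KO-labelled library.

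The receptors did not move together, since both signalling receptors had lower and the co-receptor a higher value in the KO-labelled library. The type II receptor Tgfbr2 had 32.3 FPKM in WT against 24.6 FPKM in the KO-labelled library. Its log2 fold change of -0.38 was the lowest of the members, and 13.1% of all genes past the filter lay below it. A larger change in either direction was found in 28.3% of all genes past the filter. The type I receptor Tgfbr1 had 14.2 and 12.2 FPKM, a log2 fold change of -0.21. The ratio of Tgfbr2 to Tgfbr1 was 2.28 in WT and 2.02 in the other, so the signalling pair kept nearly the same proportion. Tgfbr3 had 5.08 FPKM in WT against 9.88 FPKM in the KO-labelled library, which is 1.94 times as much and a log2 fold change of 0.84. Only 3.90% of genes past the filter had a higher log2 fold change. Tgfbr3 made up 9.86% of the summed receptor level in WT and 21.2% in the KO-labelled library, and Tgfbr2 62.6% and 52.8%. The ratio of Tgfbr2 to Tgfbr3 was 6.35 and 2.49.

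Among the Smads, Smad3 differed between the libraries and Smad2 and Smad4 hardly did. Smad3 had 5.34 FPKM in WT against 10.4 FPKM in the KO-labelled library, which is 1.95 times as much, a log2 fold change of 0.85 and the highest of the members. A higher log2 fold change was found in 3.79% of genes past the filter. Smad2, the other receptor-regulated Smad, had 26.2 and 27.3 FPKM, a log2 fold change of 0.060. Smad4, the partner common to both, had 34.5 and 35.1 FPKM, a log2 fold change of 0.027. Smad7, the inhibitory Smad and itself a gene induced by the pathway, had 19.6 and 17.0 FPKM, a log2 fold change of -0.20. Smad2 exceeded Smad3 in both libraries, by 4.90 times in WT and by 2.62 times in the KO-labelled library, and the share of Smad3 in their sum was 17.0% and 27.6%. The ratio of Smad7 to Smad3 was 3.67 in WT and 1.63 in the other.

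**Figure D2:**
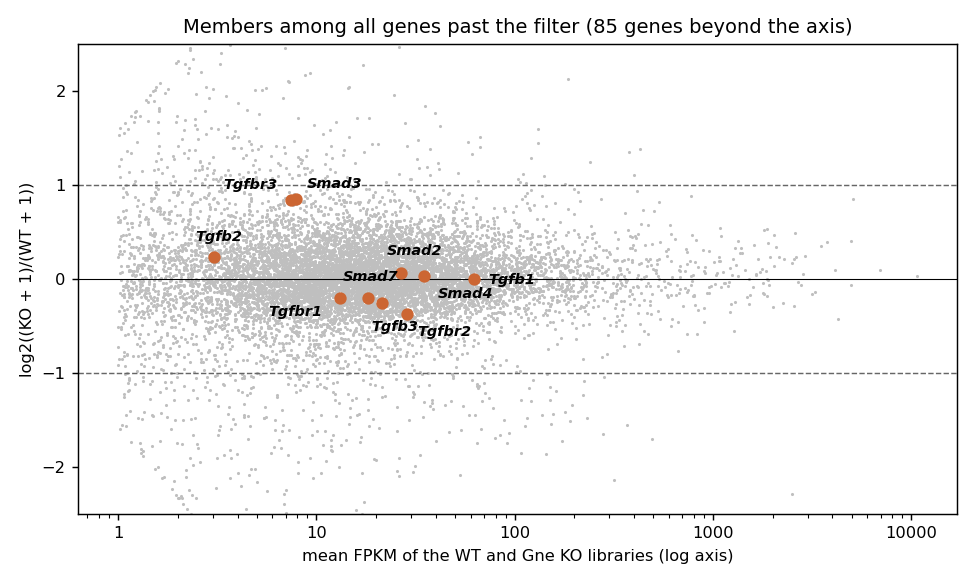
Log2 fold change against the mean FPKM of both libraries (log axis) for all genes past the filter in grey and the members in orange, with dashed lines at a change of 2-fold; 85 genes lie beyond the vertical axis. Smad3 and Tgfbr3 lie side by side at 0.85 and 0.84, just inside the upper line, and the other members lie between -0.38 and 0.23.

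The order of the levels was nearly the same in both libraries. In the WT library it ran from Tgfb1 over Smad4, Tgfbr2, Smad2, Tgfb3, Smad7, Tgfbr1, Smad3 and Tgfbr3 down to Tgfb2. In the KO-labelled library, Smad2 stood above Tgfbr2, and the other 8 members held the same places. Without replicates, neighbours in this order such as Smad3 and Tgfbr3 cannot be called different. Among all genes past the filter, Tgfb1 lay at percentile 86.2 of the WT library and Tgfb2 at percentile 9.87. Smad3 lay at percentile 20.6 in WT and 38.3 in the KO-labelled library, and Tgfbr3 at 19.6 and 36.7. The median gene past the filter had 15.3 and 15.4 FPKM.

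The number of reads per library is not given with the values. From single-transcript genes with the lowest values, 130 in WT and 140 in the other, 1 fragment on a transcript of 1 kb was worth about 0.0366 FPKM in WT against 0.043 FPKM in the KO-labelled library. By this estimate Tgfb2, the lowest member, rested on about 73.9 fragments per kilobase in WT and 77.8 in the KO-labelled library. This bears on counting error alone, and gives no measure of how much 2 cultures of a line differ.

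Stretches of some chromosomes were shifted as a whole between the libraries, so each member is given beside the genes past the filter that lie within 5 Mb of it on GRCm39 in the GENCODE vM39 annotation. Smad3 lies on chromosome 9 from 63554049 to 63665476 on the minus strand, and its 63 neighbours had a median log2 fold change of 0.36. Only 2 of them had a higher log2 fold change than Smad3, and after subtraction of their median Smad3 stood at 0.49. Smad6, an inhibitory Smad of the bone morphogenetic protein (BMP) branch named after its values were seen, is on the same chromosome. It had 8.97 and 11.2 FPKM, a log2 fold change of 0.30. Its neighbour median was 0.36 as well, which is no separate observation as far as both windows hold the same genes. Tgfbr3 lies on chromosome 5 from 107249402 to 107437623 on the minus strand. Its 51 neighbours had a median of -0.067 and 2 of them exceeded its log2 fold change, so that Tgfbr3 stood at 0.91 after the subtraction. Tgfbr2 lies on chromosome 9 from 115913361 to 116004800 on the minus strand, far from Smad3, where 36 neighbours had a median of -0.080 and 3 of them had a lower log2 fold change than Tgfbr2. The neighbour medians of the other 7 members were between -0.11 and 0.057. These 7 lie on chromosomes 7 (Tgfb1), 1 (Tgfb2), 12 (Tgfb3), 4 (Tgfbr1) and 18 (Smad2, Smad4 and Smad7).

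**Figure D3:**
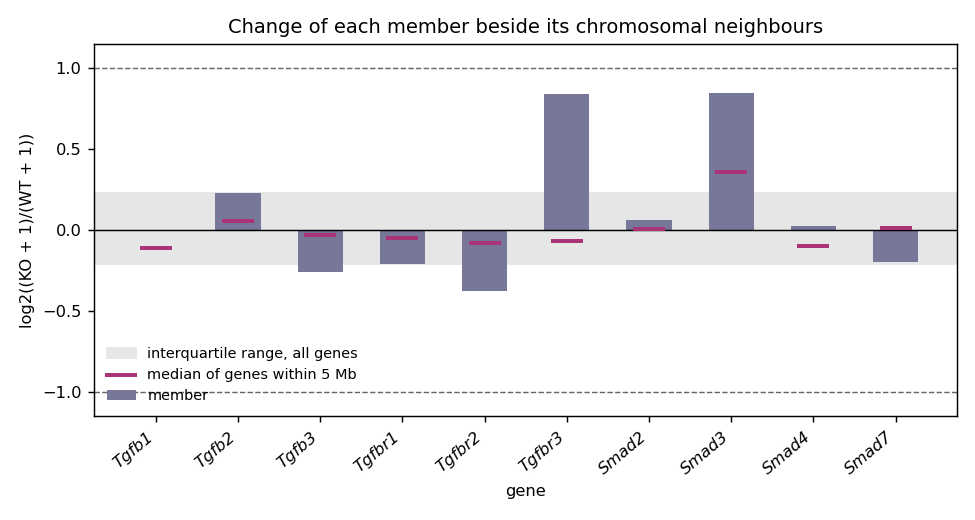
Log2 fold change of each member (bars, from 0), the median of the genes within 5 Mb of it (horizontal marks), the interquartile range of all genes past the filter (grey band) and a change of 2-fold (dashed lines). The neighbour median is 0.36 at Smad3, whose bar reaches 0.85, and -0.067 at Tgfbr3, whose bar reaches 0.84.

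Exons of Tgfb3 overlap those of Ttll5 on the opposite strand, and the labels describe a strand-specific library. Whether the counting used the strand is not given in the sources used here. Exons of Tgfb2, Tgfbr1 and Tgfbr2 overlap annotated genes on the opposite strand for which no value is given. Those of Tgfbr3 overlap Gm43422, also without a value, on the same strand. Strand information cannot separate reads of that overlap. Exons of Tgfb1 and of the 4 Smads overlap none.

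Upstream of the ligands, most genes of a list on TGF-beta processing, latency and activation had somewhat higher values in the KO-labelled library. The list is mixed, and not every gene on it stores or releases the ligand, so its counts do not measure release. Of its 16 genes 12 passed the filter, of which 9 were higher and 3 lower, with a median log2 fold change of 0.32. None was more than 2-fold higher and 1 was more than 2-fold lower, beside 3.43% of all genes, and about as many genes were higher (5348) as lower (5192) among all. The lower gene was Ltbp4, a latent TGF-beta binding protein, with 16.9 FPKM in WT against 7.28 FPKM in the KO-labelled library, a log2 fold change of -1.11, and with a pseudocount of 5 it was no longer beyond 2-fold. The most abundant were Thbs1, thrombospondin, which can release the ligand and had 111 and 140.0 FPKM, and Itgav, the shared subunit of the integrins that activate it, with 54.8 and 81.3 FPKM. Its partners, named after their values were seen, did not share a direction. Itgb5 had 31.9 and 60.6 FPKM, a log2 fold change of 0.91, and Itgb8 1.53 and 3.44 FPKM, a log2 fold change of 0.81. Itgb3 was lower, with 7.45 and 4.51 FPKM, a log2 fold change of -0.62. Itgb6 was below the filter, with 0.176 and 0.038 FPKM.

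Of 9 other receptors, co-receptors and ligand traps, 4 passed the filter, and their median was 0.11. Of these 4, 0 were more than 2-fold higher, beside 2.84% of all genes, and 0 lower, beside 3.43%. The most abundant was Bgn, a small proteoglycan that binds TGF-beta, with 545 FPKM in WT against 1004 FPKM in the KO-labelled library, a log2 fold change of 0.88. Vasn, which binds and traps the ligand, had 34.6 and 29.1 FPKM.

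The genes whose proteins guide, silence or degrade Smads were evenly split. All 20 passed the filter, 10 were higher and 10 lower, and the median was -0.0072. Of the 20, 0 were more than 2-fold higher, beside 2.84% of all genes, and 0 lower, beside 3.43%. The most abundant were Fkbp1a, which keeps the type I receptor silent and had 286 and 267 FPKM, and Strap, a receptor-binding inhibitor, with 152 and 145 FPKM.

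The 4 Smads outside the member list all passed the filter, with 3 higher and 1 lower in the KO-labelled library. Among all genes, 5348 were higher and 5192 lower. Of the 4 Smads, 0 were more than 2-fold higher, beside 2.84% of all genes, and 1 lower, beside 3.43%. This was Smad1, a BMP-branch Smad, with 26.7 FPKM in WT against 9.54 FPKM in the KO-labelled library, a log2 fold change of -1.39. The genes within 5 Mb of Smad1, on chromosome 8, had a median of -1.26, and Smad1 stood at -0.13 after its subtraction. Smad5, of the same branch, had 22.1 and 26.6 FPKM, a log2 fold change of 0.25. The Smads therefore differed in opposite directions at Smad3 and Smad1, the first above the median of the genes around it and the second close to it.

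Activin and myostatin ligands also signal through Smad2 and Smad3. Of 12 genes of that arm 7 passed the filter, 3 higher and 4 lower, with a median of -0.012. Inhbb, a subunit of activin B, was the single gene more than 2-fold higher, beside 2.84% of all genes, with 1.44 FPKM in WT against 7.47 FPKM in the KO-labelled library, a log2 fold change of 1.79. It was no longer beyond 2-fold at a pseudocount of 5, and it did not reach a mean of 5 FPKM. The most abundant ligands were Gdf11, with 14.1 and 13.7 FPKM, and Inhba, with 11.3 and 12.3 FPKM. Mstn, which encodes myostatin and was named after its values were seen, was listed at 0 in both libraries.

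Genes known to be induced by TGF-beta were spread widely in both directions. Of 27 such genes 24 passed the filter, 15 were higher and 9 lower in the KO-labelled library, 6 lay above and 1 below the 2-fold limits, and the median log2 fold change was 0.46. Of all genes, 2.84% lay above and 3.43% below these limits. Of the 6, Col1a1 and Postn had the largest differences. Col1a1 had 9.66 and 273 FPKM, and Postn, a matricellular protein, 0.44 and 33.9 FPKM. Col1a2 had 237 and 621 FPKM. Ccn2, a secreted matricellular factor and a common readout of the pathway, had 17.5 and 62.1 FPKM, a log2 fold change of 1.77. The contractile genes Acta2, whose promoter window is shown above, and Tagln had 213 and 544 FPKM and 20.3 and 54.5 FPKM, log2 fold changes of 1.35 and 1.38. Col3a1, with the highest mean of the list though the highest value in neither library, had 347 and 519.9 FPKM, a log2 fold change of 0.58.

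The matrix genes Col1a1, Col1a2, Col3a1, Fn1 and Postn were already known to be higher in these libraries when the list was drawn up, so they are no independent evidence of its direction. The rest of the list was also drawn up with earlier results of these data known, so it is no independent evidence either. Without the 5 matrix genes the median over 19 genes was 0.19. Of the 19, 3 were more than 2-fold higher, beside 2.84% of all genes, and 1 lower, beside 3.43%. The lower gene was Junb, an AP-1 subunit, with 282 FPKM in WT against 98.2 FPKM in the KO-labelled library, a log2 fold change of -1.51. The median of the genes around it, on chromosome 8, was -1.46.

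Genes that respond early and directly to Smad complexes, named here after their values were seen, did not share a direction. Klf10, a TGF-beta-inducible transcription factor, had 36.4 FPKM in WT against 20.3 FPKM in the KO-labelled library, a log2 fold change of -0.81. Like Smad7, it had the lower value in the KO-labelled library. Skil, a Smad co-repressor, had 12.6 and 19.8 FPKM, a log2 fold change of 0.61, and Pmepa1, an inhibitor of Smad activation, 32.7 and 45.2 FPKM, a log2 fold change of 0.46.

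**Figure D4:**
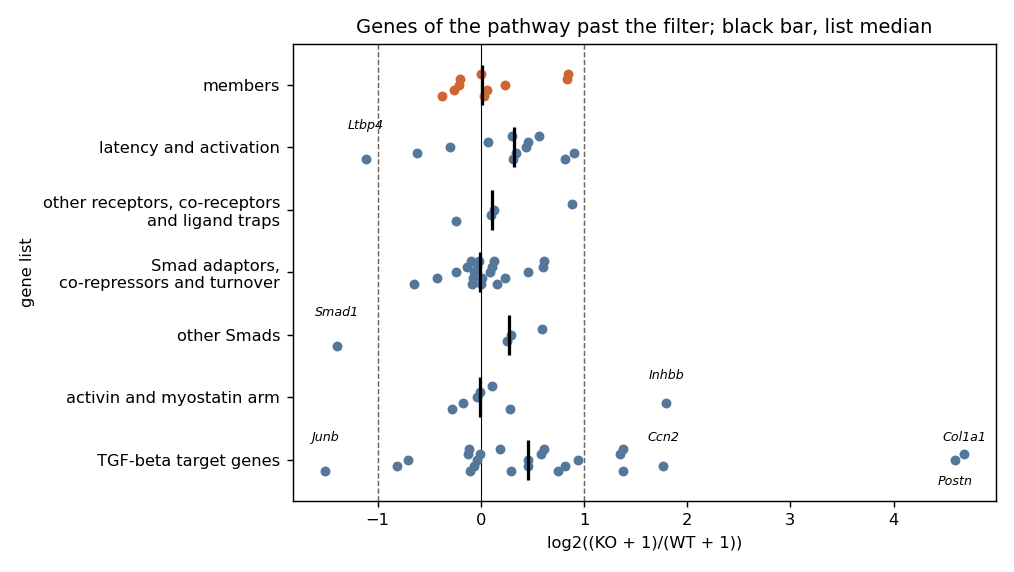
Log2 fold change of each gene past the filter, by list, with the list median as a black bar and dashed lines at a change of 2-fold. The members lie between -0.38 and 0.85 around a median of 0.015, and the target genes run from -1.51 for Junb to 4.69 for Col1a1.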

How the data were processed

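Total RNA from C2C12 cells was sequenced as 1 strand-specific library per line. Per the labels, 2 µg of RNA and paired reads of 75 bp were used, whereas the supplementary methods name another kit, sequencer and read length. The submitters' processing notes list Trim Galore 0.6.6, STAR 2.7.9a, RSEM 1.3.3 and the build GRCm38, and the methods name GRCm39. The authors deposited 1 value per gene symbol, treated here as FPKM. No unit stands in the headers. FPKM was inferred because the column totals are unequal and because low values rise in steps that scale with the length of the transcript. TPM restricted to these genes would give the same ratios up to 1 factor per library.

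The 21853 rows held 24 repeats of a symbol, for which only the row of higher mean was used. Fold changes used a pseudocount of 1, which understates the change of low genes, and a filter of a mean of at least 1 FPKM. Because each group had 1 library, no p-value was computed. Of 10542 genes past the filter, 10160 had a position in GENCODE vM39. The members and lists were chosen with earlier results of these data known. Named genes were all members, and of each other pathway list the genes beyond 2-fold and the 2 with the highest mean. Other genes, the cell type markers among them, were named after their values were seen. No gene was named for likeness of pattern, since with 2 libraries a pattern is a single ratio. The calling was tested on simulated data with little noise and planted changes well beyond the 2-fold limit. That test gives no error rate for these libraries. Alternatives were a pseudocount of 0.1 or 5, leaving out the filter, raising it to 5 FPKM, median of ratios scaling, equal totals and subtraction of the median of neighbouring genes. Python 3.11.15, numpy 2.4.6, pandas 2.3.3 and matplotlib 3.10.9 were used.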

Additional observations from a re-analysis of the deposited data

How the results depend on the processing

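With 1 library per line no replicate could be left out. No paired analysis was possible because each group holds 1 library and no test was run. Counts were said to move when they changed by over 1.5 times, and log2 values when they changed by over 0.22, which is 0.5 of the interquartile range of all genes (0.44). Of 237 values recomputed under 9 settings, 209 moved by less and 28 by more. No recomputed log2 value was beyond 1 in the main setting, so no called direction could turn. The sign of a log2 value changed in 7 cases. Among them was the median of all genes, at -0.0056 with median of ratios scaling and -0.0075 with equal totals. It was -0.00071 once the neighbour median was subtracted. Under each of the 7 planned settings 0 members were more than 2-fold higher and 0 lower. Smad3 was at 0.58 and Tgfbr3 at 0.56 with a pseudocount of 5, and Smad3 at 0.49 once the neighbour median was subtracted. Tgfb1 was at -0.0084 with median of ratios scaling (factor 1.01) and -0.010 with equal totals. A pseudocount of 0.1 gave 1 latency gene and 1 other Smad more than 2-fold higher. A pseudocount of 5 gave 102 higher and 176 lower among all genes, 0 lower latency genes and 0 higher activin genes. Without a filter, 1 gene among the co-receptors and traps was more than 2-fold higher, and their median was -0.050. A mean of at least 5 FPKM gave 145 higher and 221 lower among all genes and 0 higher activin genes. With the neighbour median subtracted 0 other Smads and 0 target genes were more than 2-fold lower. The median of the Smad adaptors was then 0.013. At 1.5-fold, a setting chosen after seeing the data, 2 members were higher, with 810 higher and 791 lower among all genes, 2 higher and 2 lower latency genes, 1 higher co-receptor or trap, 2 higher and 1 lower Smad adaptors, 1 higher other Smad, and 10 higher and 3 lower target genes. Without 5 matrix genes, also chosen after seeing the data, 3 target genes were higher and their median was 0.19.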

Other observations

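Some pathway genes below the filter, named after their values were seen, differed by several fold at low levels. Lrrc32, which tethers latent TGF-beta to the cell surface, had 0.089 FPKM in WT against 1.05 FPKM in the KO-labelled library. Dcn, a small proteoglycan that binds TGF-beta, had 0.272 and 1.68 FPKM, and genes within 5 Mb of it had a median log2 fold change of 0.39. Tgfbr3l, a relative of Tgfbr3, had 1.09 and 0.282 FPKM, the opposite direction to Tgfbr3. Bambi, a decoy receptor without kinase activity, had 0.52 and 0.236 FPKM. Tgfbi, a matrix gene named for its induction by TGF-beta, and Cdkn2b, a cell cycle inhibitor on the target list, were listed at 0 in both libraries.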
